A study of Mus musculus with 6 samples.

Results

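The genes described here are 10 genes of the circadian clock, out of 25690 in the deposited table: Arntl, Clock, Npas2, Per1, Per2, Per3, Cry1, Nr1d1, Nr1d2 and Dbp. They were taken by name, and all 10 were found in the table under Ensembl identifiers. The RNA came from hepatic tissue of the mouse, with 3 sequenced libraries labelled wildtype control, called controls 1, 2 and 3, and 3 labelled hepatic FTO knockout, called knockouts 1, 2 and 3. FTO is an RNA demethylase that removes N6-methyladenosine. The groups differ in the genotype label alone, and no treatment is named for either. The time of day of collection, feeding, strain, age, the means by which the gene was deleted and whether animals were pooled are not stated in the labels. Nothing states that each library stands for its own animal. The p-values then cover only the variation among these 6 libraries, some of which may be technical.

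The clock of liver cells is a loop of transcription factors. BMAL1 (gene Arntl) pairs with CLOCK or its relative NPAS2 and activates genes that carry an E-box, among them the Per and Cry genes, whose proteins then repress the pair. A further loop runs through the receptors REV-ERB alpha and beta (Nr1d1, Nr1d2), which the pair activates and which repress Arntl, Clock and Npas2 through RORE elements. In liver of mice on a light-dark cycle, Arntl and Npas2 RNA peak around dawn, Nr1d1 RNA peaks in the light phase, Dbp RNA follows in the afternoon and Per2 RNA peaks around dusk. The comparison of these genes therefore describes whether the groups stood at a like point of the cycle. With no collection time stated, a difference in sampling time cannot be told apart from an effect of the genotype on these genes. A lack of called genes does not show that the sampling times were alike.

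Of the table's 25690 genes, 10405 averaged 1 FPKM or more (fragments scaled by transcript length and library size) and were tested with limma. The depth inferred from the values was 34140000 to 42530000 fragments per library. Fto itself was at 6.67, 6.02 and 6.40 FPKM in controls 1, 2 and 3 and at 1.79, 3.83 and 2.66 FPKM in knockouts 1, 2 and 3. All knockouts lay below all controls (log2 change -1.0, SE 0.19, adjusted p 0.0386 in limma). The call was lost with no filter on low values (adjusted p 0.0975), with libraries scaled without mitochondrial transcripts (0.0613) and on leaving out any library but knockout 2 (0.0636 to 0.147). Of 12 hepatocyte markers, 0 were called in limma and 5 (Apoa1, Serpina1a, Cps1, Fgb and Hnf4a) were higher in the knockouts at an unadjusted p under 0.05. At that level 0 were lower, and of all tested genes 8.65% were higher and 10% lower. Alb had a value of 0 in control 1 and knockout 3, which can be a failed estimate. Alb is part of the library sums used in the scaling without mitochondrial transcripts, so results under that scaling carry this limit. Markers of Kupffer cells summed to 74.4 to 255 FPKM in controls and 212 to 373 FPKM in knockouts, with log2 changes above 0 for 12 of 12. Red cell markers summed to 406 to 875 and 316 to 457 FPKM, with 5 of 5 tested genes below 0. Of these 5, 0 were called in limma, and 4 were lower and 0 higher at an unadjusted p under 0.05. Adipocyte markers summed to 52.5 to 92.5 and 15.0 to 18.4 FPKM. Of these, 3 fell in limma: Cidea, a lipid droplet gene, from 33.4 ± 4.91 to 0.257 ± 0.0596 FPKM (adjusted p 6.65e-06), Cfd from 5.34 ± 1.10 to 0.951 ± 0.317 FPKM (0.00388) and Pparg from 9.09 ± 1.94 to 3.17 ± 0.164 FPKM (0.00723; SD, n = 3 each). Adipoq, a defining adipocyte marker, was at 0.0824, 0.233 and 0.0248 FPKM in the controls and at 0 in the knockouts. Summed levels of endothelial (68.8 to 156 FPKM over the 6 libraries), stellate cell (94 to 165), bile duct (18.6 to 34.5), neutrophil (3.18 to 12.2) and lymphocyte markers (2.0 to 4.01) overlapped between the groups. The part of these differences in the clock values was not tested.

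Of the 10 clock genes, 8 passed the filter of 1 FPKM, and 0 of these 8 were called at an adjusted p under 0.05 in limma or stood at an unadjusted p under 0.05. Of all tested genes, 2.76% were called, 1.11% higher and 1.65% lower, while an unadjusted p under 0.05 was reached by 8.65% (900 genes) with higher and 10% (1043 genes) with lower levels in the knockouts. Log2 differences were above 0 for 3 of the 8 and below 0 for 5, with a median of -0.07. The median size of the difference regardless of sign was 0.15, the same as over all tested genes (0.15). The 95% intervals were wide. Over the 8 genes they reached from a 1.78-fold increase (Dbp) to a decrease to 0.625 of the control value (Per3), both in FPKM + 1. Changes within these bounds could not be told from 0 with 3 libraries a group. In FPKM the bounds of low genes are wider. For Per3 the lower bound was 0.462 with no filter and a pseudocount of 0.1. The remaining members, Arntl and Npas2, averaged less than the filter. Arntl had the largest ratio between the group means of the 10 genes, and it was lower in all 3 knockouts than in any control.

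FPKM is scaled by transcript length, so the levels of the 10 genes can be set beside each other. By their mean over the 6 libraries, the order was Dbp (48.5 FPKM), Nr1d1 (28.5), Nr1d2 (17.1), Per1 (5.66), Clock (3.0), Per2 (2.50), Per3 (1.93), Cry1 (1.37), Arntl (0.661) and Npas2 (0.213). The ranges of Nr1d1 and Nr1d2, of Nr1d2 and Per1, of Per1 and Clock and of Cry1 and Arntl did not overlap. The ranges of the other neighbours overlapped. Within each of the 6 libraries, however, Dbp stood above Nr1d1, Per2 above Per3 and Arntl above Npas2. Clock stood above Per2 in 4 of 6 libraries and Per3 above Cry1 in 5 of 6, so the order of these 2 pairs did not hold in every library. In all 6 libraries, Nr1d1, Nr1d2 and Dbp, known for peaks in the light phase, stood at 15.5 FPKM or more, and Arntl and Npas2, known for peaks around dawn, stood at 0.984 FPKM or less.

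**Figure D1:**
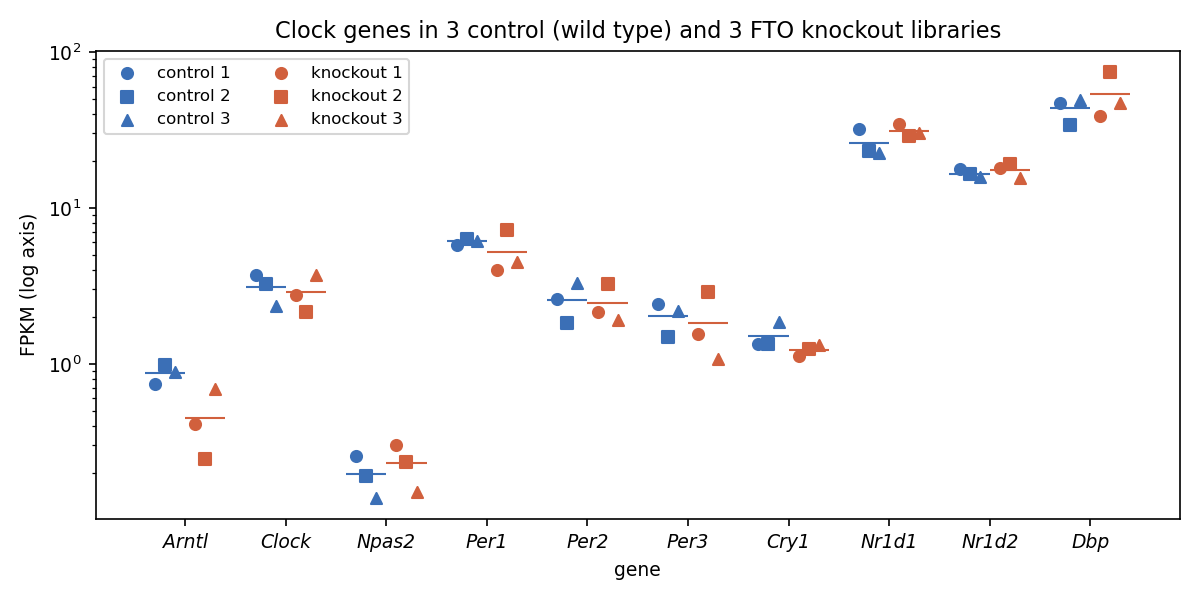
FPKM of the 10 clock genes on a log axis in each control (blue) and knockout (orange) library, with circles, squares and triangles for replicates 1, 2 and 3 and a line at each group's mean. Arntl is lower in all 3 knockouts, Cry1 is lower by a small margin, and the groups of the other 8 genes overlap.

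The control elements of the loops were searched for in the promoter windows of these genes, 250 bases before to 50 bases after each start, taken from RefSeq (GRCm38.p6, the assembly of mm10). Windows were found for 9 of the 10 genes, 13 windows in all. Per2 had no window and was not searched. The letters searched on both strands were CACGTG (E-box), CACGTT (an E-box variant, AACGTG on the other strand), TTATGTAA and TTACGTAA (D-box, the element that DBP binds), TAGGTCA and TGGGTCA (RORE) and TGACGTCA (CRE, the cyclic AMP element). They occurred in 7.15%, 4.68%, 0.938%, 0.119%, 2.61%, 3.98% and 1.79% of all 32851 windows, in that order. Among the 9 clock genes searched, 5 had a match, and no match overlapped another. The stretches around the matches are shown because they place the loops' elements beside the genes whose levels follow. Each is printed along the gene's strand, with the element in capitals and its first base counted from the start.
Arntl, chr7:113207521-113207560, plus strand, RORE at 31: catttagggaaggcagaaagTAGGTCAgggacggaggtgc
Per1, chr11:69098763-69098808, plus strand, E-box at -166: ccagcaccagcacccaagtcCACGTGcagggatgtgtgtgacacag
Per3, chr4:151044796-151044890, minus strand, D-box elements at -205 and -158: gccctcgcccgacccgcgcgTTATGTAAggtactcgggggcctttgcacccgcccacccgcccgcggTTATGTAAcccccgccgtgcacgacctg
Cry1, chr10:85185089-85185153, minus strand, E-box variant at -79 and E-box at -60: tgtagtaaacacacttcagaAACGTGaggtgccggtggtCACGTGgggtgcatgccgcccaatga
Nr1d1, chr11:98775380-98775425, minus strand, E-box variant at -28: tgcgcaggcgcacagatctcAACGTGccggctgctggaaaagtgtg
A match is a description of letters, and these windows are short.

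Among the activators, Arntl (ENSMUSG00000055116, chromosome 7, 113207465 to 113314126, mm10) encodes BMAL1, the partner common to both forms of the activating pair. The controls held 0.746, 0.984 and 0.887 FPKM and the knockouts 0.414, 0.246 and 0.687 FPKM, each in the order of replicates 1, 2 and 3, as for all genes that follow. All knockouts lay below all controls, with knockout 2 lowest and knockout 3 next to the control range. The means were 0.873 ± 0.120 and 0.449 ± 0.223 FPKM (SD, n = 3 each), a ratio of 1.94. Among the 3902 genes that averaged 0.1 to 1 FPKM, 11.6% had knockouts that were all below the controls in this way. With no filter on low values, limma gave Arntl a log2 difference of -0.38 on the log2(FPKM + 1) scale, with an SE of 0.12, an unadjusted p of 0.0200 and an adjusted p of 0.222, so it was not called. With a pseudocount of 0.1 in place of 1, chosen after the values were seen, the difference was -0.90 with a 95% interval of -1.67 to -0.12 and an adjusted p of 0.261. At the inferred depth and for its longest annotated transcript, the Arntl values correspond to roughly 34 to 144 fragments per library. When libraries were scaled to their sum without mitochondrial transcripts, control 3 and knockout 3 came to 0.723 and 0.722 FPKM, so the gap between the groups all but closed. That sum includes Alb, at 0 in control 1 and knockout 3 and at 25000 to 28900 FPKM in the other libraries. A value of 0 for Alb makes a library's sum smaller and its scaled values larger. The part of Alb in the closing of this gap was not tested.

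Clock (ENSMUSG00000029238, chromosome 5, 76209868 to 76304792) encodes a partner of BMAL1. Its level was 3.72, 3.27 and 2.35 FPKM in the controls and 2.78, 2.14 and 3.71 FPKM in the knockouts. The groups overlapped over almost their whole range, and the lowest library was knockout 2, as for Arntl. The log2 difference was -0.09 (95% interval -0.52 to 0.34, adjusted p 0.850 in limma).

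Npas2 (ENSMUSG00000026077, chromosome 1, 39193731 to 39363236) encodes the relative of CLOCK that can take its place. The controls held 0.258, 0.190 and 0.139 FPKM and the knockouts 0.303, 0.234 and 0.151 FPKM. The groups overlapped, and knockout 2, which was lowest for Arntl and Clock, lay in the middle here. These values correspond to roughly 21 to 45 fragments per library. With no filter, the log2 difference was 0.04 with an adjusted p of 0.804 in limma.

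None of the Per and Cry repressor genes was called between the groups, and of Per1, Per2, Per3 and Cry1, only Cry1 had groups that did not overlap. Per1 (ENSMUSG00000020893, chromosome 11, 69095217 to 69109960), which also responds to glucocorticoids, stood at 5.76, 6.36 and 6.14 FPKM in the controls and at 3.98, 7.24 and 4.48 FPKM in the knockouts. The controls lay close together, while the knockouts fell on both sides of them. On the log2(FPKM + 1) scale the SD of Per1 was 0.06 in controls and 0.39 in knockouts. The log2 difference was -0.22 (95% interval -0.65 to 0.21, adjusted p 0.583 in limma). Without knockout 2 it was -0.44, and it was still not called (unadjusted p 0.00816, adjusted p 0.127 in limma).

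Per2 (ENSMUSG00000055866, chromosome 1, 91415982 to 91459324) encodes a main repressor of the loop. Its level was 2.60, 1.83 and 3.29 FPKM in the controls and 2.16, 3.25 and 1.90 FPKM in the knockouts, so the highest libraries were control 3 and knockout 2, one of each group. The log2 difference of Per2 was -0.06 (95% interval -0.51 to 0.40, adjusted p 0.919 in limma). Per3 (ENSMUSG00000028957, chromosome 4, 151003652 to 151044665), a further member of the family, stood at 2.43, 1.48 and 2.18 FPKM in the controls and at 1.55, 2.88 and 1.07 FPKM in the knockouts. Knockouts 2 and 3 were the highest and the lowest of all 6 libraries, a 2.68-fold range within the group. For Per3 the log2 difference was -0.13 (95% interval -0.68 to 0.41, adjusted p 0.823 in limma). Per3 overlaps Camta1 on the same strand with no shared exon bases, and Camta1 was at 3.27 to 5.77 FPKM over the 6 libraries.

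Cry1 (ENSMUSG00000020038, chromosome 10, 85131700 to 85185064) encodes a repressor that acts late in the cycle. The controls held 1.35, 1.34 and 1.85 FPKM and the knockouts 1.12, 1.24 and 1.32 FPKM. All knockouts lay below all controls, by a narrow margin, and control 3 stood highest. With libraries scaled to their sum without mitochondrial transcripts, control 2 and knockout 3 both rounded to 1.39 FPKM. The gap thus all but closed there as well, and control 1 stood highest at 1.54 FPKM. Of the 8 tested clock genes, 1 (Cry1) had groups that did not overlap, while 24.5% of all tested genes had groups that did not overlap in either direction. Its means were 1.51 ± 0.291 and 1.23 ± 0.104 FPKM (SD, n = 3 each), with a log2 difference of -0.17 (95% interval -0.44 to 0.10, adjusted p 0.498 in limma).

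The receptor genes Nr1d1 and Nr1d2, whose products repress Arntl, differed little between the groups. Nr1d1 (ENSMUSG00000020889, chromosome 11, 98767932 to 98775333) stood at 32.1, 23.3 and 22.6 FPKM in the controls and at 34.3, 28.9 and 30.0 FPKM in the knockouts. Control 1 lay within the knockout range and the other controls below it. The means were 26.0 ± 5.29 and 31.0 ± 2.88 FPKM (SD, n = 3 each), with a log2 difference of 0.26 (95% interval -0.10 to 0.63, adjusted p 0.429 in limma). Without control 1 the difference was 0.42, and it was not called (unadjusted p 0.0159, adjusted p 0.177 in limma). Nr1d1 shares 263 exon bases with Thra, a thyroid hormone receptor gene on the opposite strand, and the sources used here do not say whether reads were assigned by strand. Thra was at 3.49 to 4.25 FPKM over the 6 libraries, well under Nr1d1.

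Nr1d2 (ENSMUSG00000021775, chromosome 14, 18204054 to 18239127) had 17.8, 16.4 and 15.7 FPKM in the controls and 17.9, 19.0 and 15.5 FPKM in the knockouts. Its highest library was at most 1.22 times its lowest within either group. The log2 difference was 0.06 (95% interval -0.21 to 0.33, adjusted p 0.830 in limma).

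Dbp (ENSMUSG00000059824, chromosome 7, 45705088 to 45710203) encodes a transcription factor that is a direct output of the activating pair and acts through D-box elements. The controls held 47.0, 34.2 and 49.4 FPKM and the knockouts 38.9, 74.3 and 47.1 FPKM. Knockout 2 stood above all other libraries, and the other knockouts lay within the control range. The means were 43.5 ± 8.17 and 53.4 ± 18.5 FPKM (SD, n = 3 each), with a log2 difference of 0.25 (95% interval -0.32 to 0.83, adjusted p 0.645 in limma). Without knockout 2 the log2 difference was -0.01. Dbp shares 539 exon bases with Sphk2, a sphingosine kinase gene on the opposite strand, which was at 13.7 to 17.9 FPKM and was also highest in knockout 2.

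**Figure D2:**
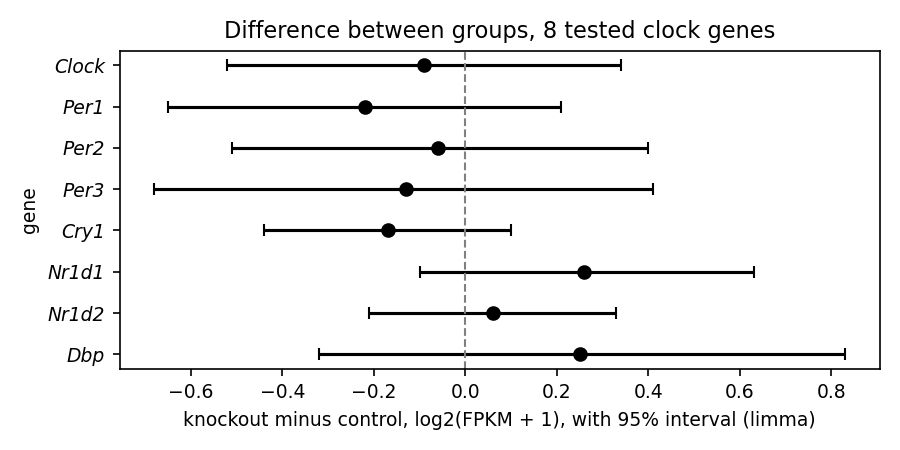
Log2 difference between knockouts and controls on the log2(FPKM + 1) scale for the 8 tested clock genes (points), with the 95% interval of limma (bars). Every interval includes 0, and the intervals of Dbp (-0.32 to 0.83) and Per3 (-0.68 to 0.41) are the widest.

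Ratios between genes known to peak in opposite parts of the day were formed within each library, where differences in library scaling cancel. The ratio of Dbp to Arntl was 63.0, 34.7 and 55.7 in controls and 94.0, 302 and 68.6 in knockouts. That of Nr1d1 to Arntl was 43.0, 23.6 and 25.5 in controls and 82.9, 117 and 43.6 in knockouts. All knockouts thus lay above all controls in both ratios, which share Arntl, and for Nr1d1 to Arntl the gap was only from 43.0 to 43.6. The mean log2 difference for Dbp to Arntl was 1.33, and 0.70 without knockout 2. With Npas2 in place of Arntl the groups overlapped. The ratio of Nr1d1 to Npas2 was 124, 123 and 163 in controls and 113, 123 and 198 in knockouts. That of Dbp to Npas2 was 182, 180 and 356 in controls and 128, 317 and 311 in knockouts. No test was made of these ratios.

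**Figure D3:**
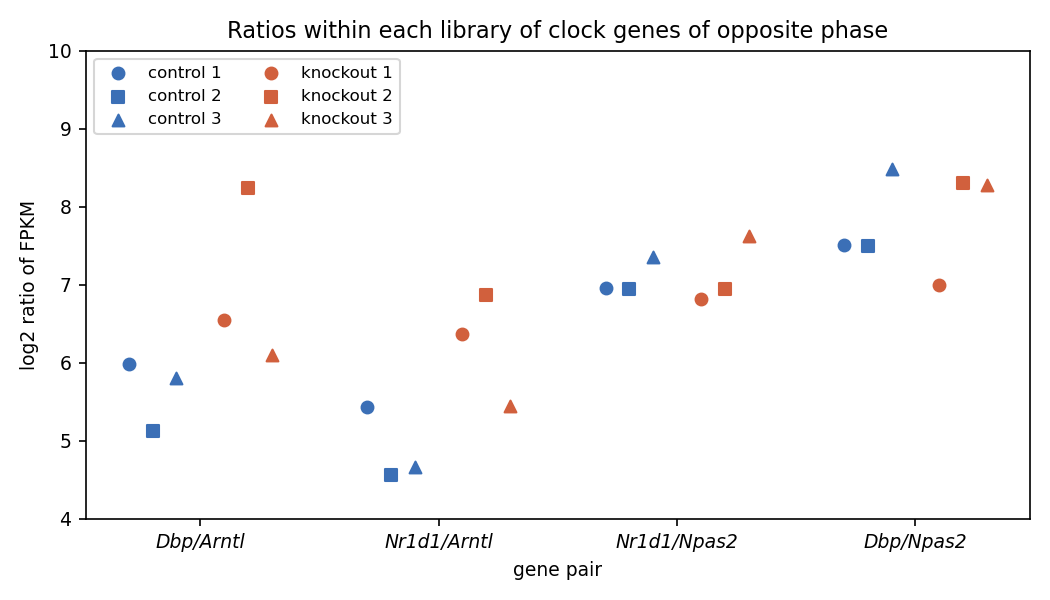
Log2 of the FPKM ratio of 4 gene pairs in each control (blue) and knockout (orange) library, with circles, squares and triangles for replicates 1, 2 and 3. Knockouts lie above controls for both ratios to Arntl, with knockout 2 highest at 8.24 for Dbp to Arntl, and the groups overlap for both ratios to Npas2.

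Within groups, 6 of the 8 tested clock genes varied more between libraries than the median tested gene did, and Cry1 and Nr1d2 (SD 0.12 each) varied less. The SD within groups on the log2(FPKM + 1) scale had a median of 0.28 over the 8 tested clock genes and of 0.17 over all tested genes. Among the knockouts the medians were 0.29 and 0.14, and among the controls 0.25 and 0.16. Knockout 2 accounted for many of the extremes: it was highest of the 6 libraries for Per1, Per3, Nr1d2 and Dbp and lowest for Arntl and Clock. Over the 8 tested clock genes, its mean distance from the 6-library median was 0.28 on this scale, the largest of the 6 libraries. Over all tested genes its distance was 0.13, the smallest of the 6. Control 3 had distances of 0.21 for the clock genes and 0.24 for all tested genes, the latter the largest of the 6. These are descriptions, and no test was made between libraries.

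Across the 6 libraries, 45 pairs of clock genes were compared on the log2(FPKM + 1) scale with exact permutation tests over 720 pairings. Of these pairs 0 had an adjusted p under 0.05, and 2 (Per2 with Per3, Cry1 with Nr1d1) had an unadjusted p under 0.05. The highest correlation was between Per2 and Per3, with a Pearson r of 0.87 (exact permutation p 0.0403, adjusted 0.55) and a Spearman rho of 0.77 (exact permutation p 0.10, adjusted 0.78). It was 0.89 after leaving out the 2 libraries farthest from the median of Per2. Npas2 and Nr1d2 followed, with an r of 0.83 (exact permutation p 0.0611, adjusted 0.55), a rho of 0.77 (exact permutation p 0.10, adjusted 0.78) and an r of 0.87 without the 2 farthest libraries. Per2 and Dbp had an r of 0.76 (exact permutation p 0.0653, adjusted 0.55), a rho of 0.77 (exact permutation p 0.10, adjusted 0.78) and an r of 0.53 without the 2 farthest libraries. Pairs with Arntl or Cry1 are in these counts, but no r is given for them, since the groups of these genes do not overlap.

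Of 12 other genes of the clock loops considered, 10 were tested and 0 were called in limma, with a median log2 difference of -0.07, and 1 (Tef, higher in the knockouts) had an unadjusted p under 0.05. Tef, a relative of Dbp, stood at 35.4, 31.5 and 39.5 FPKM in the controls and at 51.2, 50.4 and 38.2 FPKM in the knockouts (log2 difference 0.38, adjusted p 0.241 in limma). Knockouts 1 and 2 were high, and knockout 3 lay in the control range. Hlf, a further gene of that family, had 17.6, 13.1 and 17.3 FPKM in the controls and 12.1, 16.0 and 13.4 FPKM in the knockouts. Nfil3, which encodes a repressor at D-box elements, had 7.08, 5.71 and 5.65 FPKM in the controls and 9.54, 3.97 and 7.73 FPKM in the knockouts. It was lowest in knockout 2, where Dbp was highest.

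Ciart, which encodes a repressor of the activating pair, had the widest spread of these genes, at 8.29, 4.86 and 24.7 FPKM in the controls and 4.79, 14.1 and 5.29 FPKM in the knockouts. The high libraries were control 3 and knockout 2, as for Per2. Usp2, a clock-driven protease gene, had 8.66, 5.72 and 13.8 FPKM in the controls and 8.49, 17.0 and 9.28 FPKM in the knockouts, and its high libraries were again control 3 and knockout 2. Cry2, a further Cry repressor gene, had 6.25, 5.47 and 6.81 FPKM in the controls and 4.07, 8.46 and 5.93 FPKM in the knockouts. The repressor gene Bhlhe41 had 1.61, 0.891 and 0.719 FPKM in the controls and 1.12, 2.87 and 1.31 FPKM in the knockouts. Both were highest in knockout 2. Its relative Bhlhe40 was nearly level, at 37.2, 38.5 and 38.4 FPKM in the controls and 37.8, 37.9 and 26.3 FPKM in the knockouts, with knockout 3 alone low.

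Rora, which encodes a receptor that activates Arntl through the RORE, had 4.03, 3.28 and 2.64 FPKM in the controls and 3.09, 2.86 and 2.48 FPKM in the knockouts. The groups overlapped, with control 1 highest and knockout 3 lowest. Rorb was at 0.0103 FPKM or less. Timeless was at 1.17 to 1.76 FPKM and Arntl2, a relative of Arntl, at 0.170 to 0.297 FPKM over the 6 libraries, with overlapping groups.

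**Figure D4:**
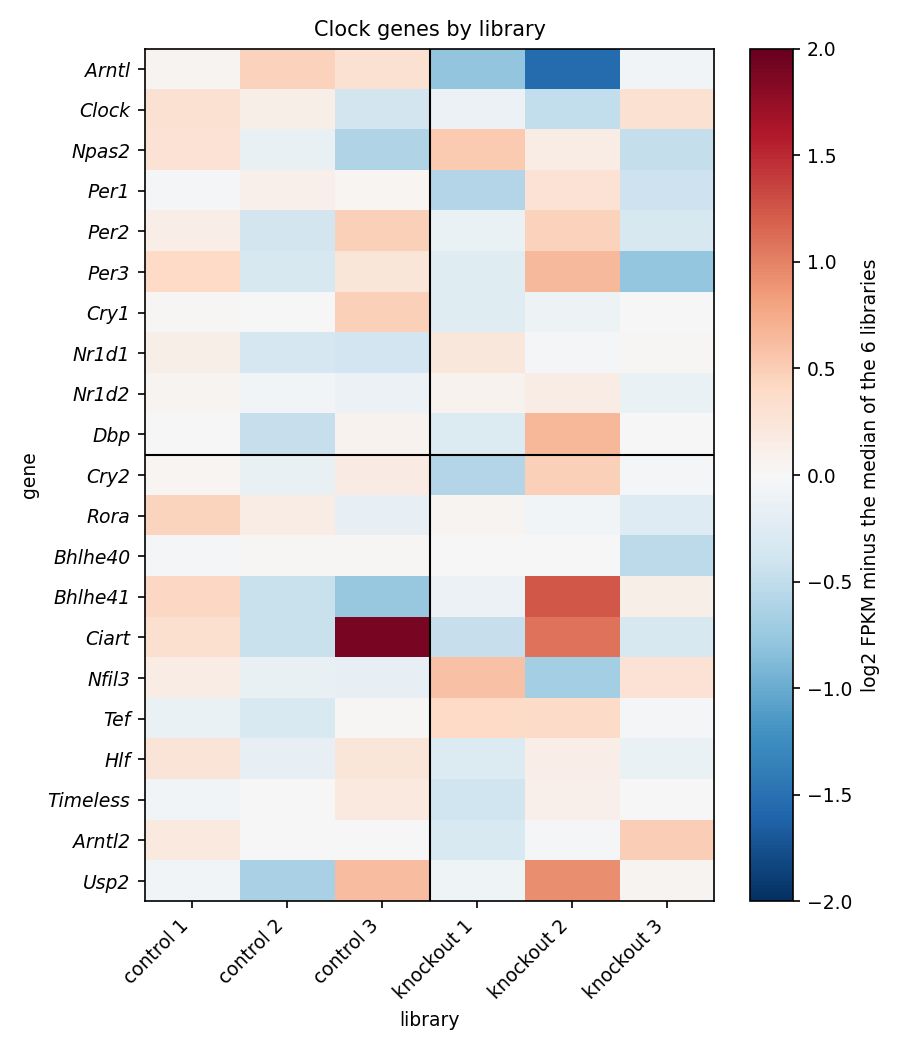
Log2 FPKM of the 10 clock genes (above the horizontal line) and 11 other clock loop genes (below it) in each library, relative to the median of the 6 libraries for that gene. Knockout 2 has the lowest Arntl (-1.54) and high Ciart (1.09), Usp2 (0.92) and Dbp (0.66), and control 3 has the highest Ciart (1.90).

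Genes that modify clock proteins, such as the casein kinases, had 0 of 24 called in limma and 1, a lower gene, at an unadjusted p under 0.05. Of 30 rhythmic liver output genes tested, 1 was higher and 1 lower, where 2.76% of all tested genes were called, while 8 reached an unadjusted p under 0.05, of which 6 were higher and 2 lower. Avpr1a, a vasopressin receptor gene, rose from 1.62 ± 0.813 to 4.71 ± 0.437 FPKM, and Cdkn1a, which encodes an inhibitor of the cell cycle, fell from 5.29 ± 2.27 to 0.441 ± 0.155 FPKM (SD, n = 3 each; adjusted p 0.0399 and 0.00836 in limma). The median log2 change of this list was 0.15, and over all tested genes it was 0.0. Of 18 glucocorticoid responsive genes, 0 were called higher and 4 lower, where 1.65% of all tested genes were called lower. At an unadjusted p under 0.05 in limma, 8 were lower and 0 higher, where 10% of all tested genes were lower. Log2 changes were below 0 for 15 of the 18, with a median of -0.33. The 4 called genes were the metallothionein genes Mt1 and Mt2, the phosphatase gene Dusp1 and the stress gene Gadd45g. Per1 belongs to this list and was not called. The 3 tested genes with log2 changes above 0 were Fkbp5 (0.71), Angptl4 (0.25) and Lcn2 (0.21). Zbtb16, also of this list, lay under the filter, at 0.433, 0.232 and 0.538 FPKM in the controls. Its knockouts, at 1.2, 0.983 and 1.24 FPKM, all lay above them, with an adjusted p of 0.0618 in limma with no filter. In all, these lists held 6 called genes, and 1 (without knockout 3) to 6 when a single library was left out.

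Of 20 genes that follow feeding and fasting, 0 were called in limma, and 3 were lower at an unadjusted p under 0.05, where 10% (1043 of 10405) of all tested genes were. Of 13 temperature responsive genes, 0 were called in limma, while 3 were higher at an unadjusted p under 0.05, where 8.65% of all tested genes were, and the median log2 change was 0.53. Their summed level was 955 to 1090 FPKM in controls and 1260 to 1880 FPKM in knockouts. The part of these differences in the clock values was not tested either.

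The genes whose levels ran most like those of Dbp over the 6 libraries were found among 5872 other genes that averaged 5 FPKM or more, by Pearson r on the log2(FPKM + 1) scale. With so few libraries and so many genes, high values are found by the choice itself, and they are given as a description. For Dbp the highest were Zfp932 (r 0.943), Srsf4 (0.941), Rnf115 (0.941), Hs6st1 (0.938) and Cyp2c40 (0.938), and the lowest Leng8 (-0.961), Casp8 (-0.940), Mbd3 (-0.938), Mpp1 (-0.932) and Col5a3 (-0.931). These 10 genes are in none of the lists used here. A high r does not mean a change of like size. Over the 6 libraries Dbp was at 34.2 to 74.3 FPKM, Zfp932 at 4.04 to 7.67 FPKM and Rnf115, nearly level, at 13.8 to 14.7 FPKM. Of the clock loop genes at this level, Usp2 came nearest to Dbp, with an r of 0.916. The like search for Arntl is not given, since its groups do not overlap and a correlation over the 6 libraries would in part restate that gap.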

How the data were processed

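The deposited table gave FPKM for 25690 genes in 6 libraries, a unit inferred from their range and from Cufflinks being named. Per the submitters' processing notes, TopHat2 2.1.0, HTSeq and Cufflinks 2.2.1 were used with mm10, with no role stated and no annotation release. Groups came from the genotype label, and replicate numbers follow sample order and pair no libraries. Symbols and coordinates came from GENCODE (GRCm38), which matched 24807 identifiers. Depth was inferred from what 1 fragment is worth in 965 genes that have only 1 annotated transcript, 3000 to 8000 bases long, taking values that gave 25000000 to 50000000 fragments, a window taken from earlier work on these data. Counts were not recovered, so no count model was used.

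Differences were fitted with limma 3.58.1 in R 4.3.3 (intensity trend, two-sided) on log2(FPKM + 1), which understates changes of low genes, for the 10405 genes that averaged 1 FPKM or more. Calls required a Benjamini-Hochberg adjusted p under 0.05 over these genes. In simulated data for this comparison over 10405 genes, the fit called 75 of 100 genes changed by a log2 of 1 and 97 of 100 changed by a log2 of 2, with 7 false calls. The changed genes were drawn from those with a mean log2(FPKM + 1) above 2. These counts therefore do not cover lower genes such as Per2, Per3 and Cry1. They also need not hold for the clock genes, whose median SD within groups was 0.28, against 0.17 over all tested genes. The genes named are the 10 clock genes, the other clock loop genes, called genes of each further list and marker list, and overlapping genes. For Dbp, the 5 genes with the highest and the 5 with the lowest (most negative) r are also named. Alb, Adipoq, the hepatocyte markers, the heat shock genes and the glucocorticoid responsive genes that were not called were named after their values were seen. The correlated genes of Arntl, found by the same rule, are not given. A gene of the clock loops is not reported here and was left out of its list. The clock genes and the lists were chosen with earlier results of these data known. Alternatives were 2 other scalings, quantile normalization, a pseudocount of 0.1, no filter, other variance models and leaving out each library. The alternative that joins no filter with a pseudocount of 0.1 was added after the data were seen.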

Additional observations from a re-analysis of the deposited data

How the results depend on the processing

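The number of clock genes called was 0 under all 14 alternatives, of which only the 2 with no filter tested Arntl and Npas2. Of 114 refitted values of single clock genes, 6 changed sign, each on leaving out 1 library: Clock was at 0.02 without control 1 and 0.05 without knockout 2, Per2 at 0.09 without control 3 and 0.06 without knockout 3, Per3 at 0.07 without knockout 3, and Dbp at -0.01 without knockout 2. With a single library left out, Clock ranged from -0.24 to 0.05, Per2 from -0.22 to 0.09, Per3 from -0.38 to 0.07 and Dbp from -0.01 to 0.45. Over all genes, 115 were higher and 172 lower. With no filter there were 87 and 93, with quantile normalization 180 and 225, and with libraries scaled without mitochondrial transcripts 147 and 142, which moved the share of higher genes from 40.1% to 50.9%. Leaving out 1 library gave 38 (without knockout 3) to 266 higher (without control 3) and 39 to 209 lower genes. The pair of counts was 60 and 54 when control 2 was dropped, 65 and 62 for knockout 1, and 89 and 103 for knockout 2. In the further lists, cell type markers left aside, 6 genes were called, against 1 with no filter, 2 with no filter and a pseudocount of 0.1, and 1 to 6 without a single library. Fto lost its call with no filter (log2 change -1.0, adjusted p 0.0975), with no filter and a pseudocount of 0.1 (-1.24, 0.0925), with the mitochondrial scaling (-0.97, 0.0613) and on leaving out any library but knockout 2, with values of -1.04 to -0.81. Without knockout 2 it was -1.2. The cause of these changes was not tested. The difference of the log2 ratio of Dbp to Arntl was 1.33, with 0.63 for FPKM + 1 in the ratio and 0.70 (without knockout 2) to 1.76 without 1 library. That of Nr1d1 to Arntl was 1.34, with 0.64 and 1.02 to 1.74. The ratios to Npas2 changed sign on leaving out 1 library, with ranges of -0.20 to 0.21 for Nr1d1 and -0.18 to 0.47 for Dbp. Leaving libraries out of the ratios was added after the data were seen. No paired analysis was possible because the labels give no replicate numbers that the groups share. Depth limits Arntl and Npas2 most.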

Other observations

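Heat shock genes of the temperature responsive list differed among the knockouts in an order opposite to that of Per1, a pattern noticed after the values were seen. Of the 13 tested genes of this list, 10 were highest in knockout 1 and lowest in knockout 2 of the knockouts, an order that 19.2% of all tested genes had. Hspb1, a small heat shock protein gene, had 98.5, 25.5 and 67.9 FPKM in knockouts 1, 2 and 3 and 14.9, 20.3 and 24.0 FPKM in controls 1, 2 and 3. Hspa8, a chaperone gene, had 824, 510 and 550 FPKM in knockouts and 399, 396 and 310 FPKM in controls. Neither Hspb1 (adjusted p 0.135 in limma) nor Hspa8 (0.112) was called between the groups. Of the 18 tested glucocorticoid responsive genes, 5 (Per1, Tsc22d3, Fkbp5, Errfi1 and Sds) had knockout 2 highest and knockout 1 lowest, where 18.5% of all tested genes had this order, and 4 had the reverse order. These are orders of 3 libraries, the genes of a list are not independent of each other, and no test was made.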
